A study of Homo sapiens with 6 samples.

Results

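The genes described are 10 of the 57905 genes in the count table. They are 7 genes for adaptor proteins that bring messages to the deadenylase machinery and 3 genes for subunits of CCR4-NOT, the main cytoplasmic deadenylase complex of human cells. They were taken by name, with no threshold on a measured value, but the list was drawn up with earlier results of these data known. ZFP36, ZFP36L1 and ZFP36L2 form the ZFP36 family, BTG1, BTG2, TOB1 and TOB2 belong to the BTG/TOB family, and CNOT1, CNOT6 and CNOT7 encode the scaffold and catalytic subunits of CCR4-NOT. All 10 matched by symbol and Ensembl identifier, and all 10 passed the filter on low counts that left 16622 genes for testing.

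Most messages are degraded from their poly(A) tail inwards. CCR4-NOT shortens the tail, after which the message is either decapped and digested from its 5′ end or digested from its 3′ end by the exosome. The complex is guided to particular messages by adaptors. ZFP36 proteins bind AU-rich elements in 3′ untranslated regions (UTRs) through CCCH zinc fingers and contact CNOT1, whereas BTG and TOB proteins bind the catalytic subunit CNOT7 or its paralog CNOT8, and TOB proteins also bind poly(A)-binding protein. In the B lineage, ZFP36L1 and ZFP36L2 are known for restraining the cell cycle of precursor cells, and BTG1 is a recurrent target of deletion in B cell acute lymphoblastic leukemia.

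RNA-SEQ libraries were made from NALM6, a line of human leukemia cells of the B cell precursor type (B-ALL). The cells were treated for 24 h with the solvent DMSO (3 libraries) or with 500 nM of THZ1 (3 libraries), a covalent inhibitor of the kinase CDK7. The labels name no genetic change, and all libraries come from this 1 line. The methods speak in general of 3 independent experiments but do not tie this to the RNA-SEQ. Whether these replicates were separate cultures is thus not stated, and p-values measure only the spread between these libraries. The question was how the transcripts of leukemia cells change when CDK7 is inhibited.

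The libraries held 11015480 to 11164840 counts on genes after DMSO and 7876402 to 8314306 after THZ1, every DMSO library being deeper. Levels are given as CPM, the usual library-scaled count, after TMM scaling, where 3 counts correspond to 0.246 to 0.253 CPM after DMSO and 0.394 to 0.415 CPM after THZ1. These floors cover counting error only. A CPM is a share of the counted RNA, and in bulk samples fewer cells of a type and less RNA per cell cannot be told apart. The 8 B cell precursor markers examined (CD79A, CD79B, PAX5, EBF1, MME, CD22, VPREB1 and DNTT) were all detected, with a summed level of 2501 to 2543 CPM after DMSO and 1257 to 1337 CPM after THZ1. Of the 8, CD79A was called higher and the other 7 lower. The 4 T cell markers matched (CD3D, CD3E, CD3G and CD2) were all under the filter and summed to at most 0.969 CPM in any library. The 5 myeloid markers summed to 3.88 to 4.63 CPM after DMSO and 18.5 to 20.1 CPM after THZ1. Of these, 2 were called higher, 1 lower and 1 neither, and 1 was under the filter. CD14 rose from 0.636 ± 0.0885 to 8.71 ± 1.10 CPM and CSF1R from 0.111 ± 0.0475 to 6.08 ± 1.59 CPM (SD, n = 3). Their log2 fold changes were 3.75 and 5.63 in the counts but 2.33 and 0.87 in the deposited FPKM at a pseudocount of 1, and the lower call, that of LYZ, was lost in 8 of 15 alternatives, among them leaving out DMSO replicate 1 or 2 or THZ1 replicate 1 or 2 (edgeR adjusted p = 0.0738, 0.108, 0.164 and 0.144). Both the fall of these 7 B cell markers and the rise of these 2 myeloid markers moved with treatment, and their part in the results below was not tested.

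The 3 ZFP36 family messages share a feature that the choice by name did not use. The 3′ UTR of each, in the transcript with the longest coding sequence, holds 3 copies of TATTTAT, the core letters of the AU-rich element that ZFP36 proteins bind. The letters are shown because they link the adaptors to the kind of message they act on. Coordinates are GRCh37, the transcript strand is written 5′ to 3′ (plus for ZFP36, minus for the other two), and capitals mark the match.
ZFP36 chr19:39899824-39899846: gggcccttTATTTATgacgactt
ZFP36 chr19:39899839-39899861: gacgacttTATTTATtctaatat
ZFP36 chr19:39899864-39899886: ttttatagTATTTATatatattg
ZFP36L1 chr14:69255056-69255078: tcaaaacgTATTTATtgccaaac
ZFP36L1 chr14:69255014-69255036: tttgttcaTATTTATcgggatga
ZFP36L1 chr14:69254797-69254819: tgttggatTATTTATtttagaaa
ZFP36L2 chr2:43450590-43450612: atttaactTATTTATtatcttgt
ZFP36L2 chr2:43450542-43450564: tcatactgTATTTATcaagtatg
ZFP36L2 chr2:43450354-43450376: gtatgtaaTATTTATttcattaa

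Among 11901 tested protein-coding genes with a 3′ UTR, 5.60% hold 3 or more copies of TATTTAT on the transcript strand and 30.8% hold at least 1. The share depends on length, since the median 3′ UTR is 4330 bases in genes with 3 or more copies and 651 bases in genes with none. The ZFP36 family reached 3 copies in 3′ UTRs of 713, 1871 and 1917 bases for ZFP36, ZFP36L1 and ZFP36L2. Of the other members, CNOT6 holds 2 copies, BTG1, BTG2, TOB2 and CNOT7 hold 1 each, and TOB1 and CNOT1 hold none. Only the transcript with the longest coding sequence was searched, so copies in other 3′ UTRs of a gene are not counted. For VEGFA, known to be bound by ZFP36 proteins, that 3′ UTR has 47 bases and 0 copies. Of the 666 tested genes with 3 or more copies, 30.2% were called higher after THZ1 and 49.8% lower, against 38.6% and 45.7% of the 8231 genes with none.

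THZ1 treatment raised all 7 adaptors and lowered all 3 CCR4-NOT subunits. With edgeR's quasi-likelihood test and Benjamini-Hochberg adjustment over all 16622 genes, all 10 members were called at an adjusted p below 0.05, 7 of them higher and 3 lower, and for all 10 the treatments did not overlap. Among all genes tested, 84.5% were called, 43.5% higher and 41.1% lower, and the treatments did not overlap in 84.7%, so that a change in itself did not set these genes apart. The sizes varied among the members. With a log2 fold change of at least 1.5 as a further condition, 5 adaptors were higher, against 24.6% of all genes, and none of the CCR4-NOT members was lower, against 12.9% of all genes. The median log2 fold change was 3.17 for the 7 adaptors and −1.25 for the 3 subunits, beside 0.03 for all genes tested.

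**Figure D1:**
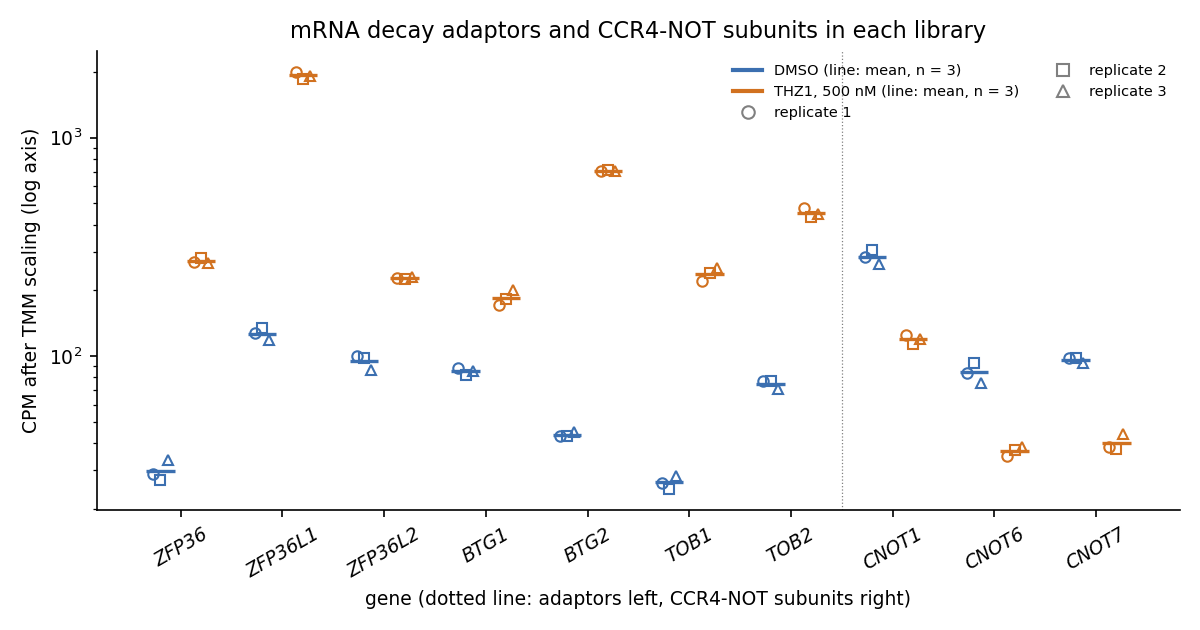
CPM after TMM scaling (log axis) of the 10 genes in each of the 3 DMSO and 3 THZ1 libraries, 1 point per library. The 7 adaptors on the left sit higher in every THZ1 library and the 3 CCR4-NOT subunits on the right sit lower in every THZ1 library.

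Of the ZFP36 family, the founding member ZFP36, also called tristetraprolin, lies at chr19:39897487-39900052 on the plus strand (GRCh37). It stood at 28.9, 27.0 and 33.4 CPM in the DMSO libraries and at 271, 281 and 267 CPM in the THZ1 libraries. Every THZ1 library lay far above every DMSO library. The mean rose from 29.7 ± 3.32 to 273 ± 7.14 CPM (SD, n = 3), a log2 fold change of 3.20 (SE 0.08, edgeR quasi-likelihood adjusted p = 1.9e-25).

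ZFP36L1, at chr14:69254377-69262970 on the minus strand, was measured at 128, 134 and 119 CPM after DMSO and at 2008, 1866 and 1922 CPM after THZ1. It had the highest CPM of the 10 genes after THZ1, and the libraries of each treatment lay close together. The mean rose from 127 ± 7.65 to 1932 ± 71.9 CPM, with a log2 fold change of 3.93 (SE 0.08, edgeR adjusted p = 1.5e-28). Of all genes tested, 10.1% had a larger log2 fold change.

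ZFP36L2, at chr2:43449541-43453745 on the minus strand, moved less than its relatives. Its values were 100.5, 98.4 and 86.0 CPM after DMSO and 228, 227 and 231 CPM after THZ1, with no overlap. The mean rose from 95.0 ± 7.83 to 229 ± 2.45 CPM, a 2.41-fold difference that stayed under the fold threshold (log2 fold change 1.27, SE 0.07, edgeR adjusted p = 1.5e-16). It was exceeded by 27.1% of the genes tested.

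In the BTG/TOB family, which curbs cell proliferation, the antiproliferative gene BTG2, known as a target of p53, rose most. BTG2 lies at chr1:203274619-203278730 on the plus strand. It was at 43.1, 42.9 and 44.9 CPM in the DMSO libraries and at 705, 712 and 701 CPM in the THZ1 libraries. The 3 replicates of each treatment differed little beside this gap. The mean went from 43.6 ± 1.12 to 706 ± 5.27 CPM, a 16.2-fold rise and the largest log2 fold change of the 10 genes (4.02, SE 0.07, edgeR adjusted p = 5.7e-29). Even so, 9.72% of all genes tested had a larger one.

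BTG1, at chr12:92534054-92539622 on the minus strand, had 88.5, 81.7 and 85.7 CPM after DMSO and 171, 182 and 199.7 CPM after THZ1. The treatments did not overlap, and the rise was the smallest of the 7 adaptors. The mean changed from 85.3 ± 3.43 to 184 ± 14.3 CPM (log2 fold change 1.11, SE 0.07, edgeR adjusted p = 7.1e-15). BTG1-DT, annotated on the opposite strand and overlapping BTG1, had 205 to 359 counts after DMSO and 477 to 637 after THZ1, with a log2 fold change of 1.79 (SE 0.14). LINC01619, on the same strand, had 54 to 62 and 75 to 111 counts. Since the strand setting of the counting is not given in the sources used here, reads of overlapping genes may be split or lost.

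TOB1, at chr17:48939584-48945339 on the minus strand, rose from 26.1, 24.7 and 28.4 CPM to 220.1, 239.8 and 252 CPM. Every THZ1 library was well above the DMSO libraries. The means were 26.4 ± 1.86 and 237 ± 16.1 CPM (log2 fold change 3.17, SE 0.08, edgeR adjusted p = 3e-25). TOB1-AS1 on the opposite strand had 22 to 35 counts after DMSO and 174 to 194 after THZ1, a log2 fold change of 3.27 (SE 0.18), and whether the pair shares reads was not tested.

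TOB2, the closest relative of TOB1, lies at chr22:41829498-41842805 on the minus strand. It was measured at 77.0, 77.0 and 70.4 CPM after DMSO and at 477, 436 and 448 CPM after THZ1, again with a wide gap between treatments. The mean rose 6.06-fold, from 74.8 ± 3.83 to 453 ± 21.3 CPM (log2 fold change 2.60, SE 0.07, edgeR adjusted p = 1.3e-24).

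Promoter sequence was examined for the members listed in the RefSeq promoter table (GRCh38.p14), in which ZFP36, ZFP36L1, BTG1, BTG2, TOB1, TOB2 and CNOT6 were matched, with 2 start sites each for ZFP36L1 and TOB1. The 250 bases before each start were searched on both strands for TATAAA, for the cAMP response element TGACGTCA, for the AP-1 element TGANTCA and for the CArG box. Only 2 of the 9 windows held any of them. The BTG1 window has TATAAA at −33 to −28 from the start, and the window of the second ZFP36L1 start has TGACGTCA at −52 to −45. Of all 35116 promoters in the table, 10.7% hold TATAAA, 1.65% TGACGTCA, 6.57% TGANTCA and 1.16% the CArG box. The 2 windows with a match are shown with the match in capitals, both on the minus strand, followed by the window of BTG2, which rose most and holds none of these letters and is on the plus strand.
BTG1 chr12:92145847-92146096: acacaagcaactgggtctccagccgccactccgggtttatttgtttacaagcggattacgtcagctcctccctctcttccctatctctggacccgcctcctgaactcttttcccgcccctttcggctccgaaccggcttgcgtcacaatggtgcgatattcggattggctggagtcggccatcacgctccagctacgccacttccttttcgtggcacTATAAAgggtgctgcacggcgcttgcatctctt
ZFP36L1 chr14:68793417-68793666: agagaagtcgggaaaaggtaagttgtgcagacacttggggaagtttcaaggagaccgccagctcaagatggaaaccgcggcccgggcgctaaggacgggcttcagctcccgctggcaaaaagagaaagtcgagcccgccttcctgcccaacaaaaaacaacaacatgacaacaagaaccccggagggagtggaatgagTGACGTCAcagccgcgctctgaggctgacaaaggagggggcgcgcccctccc
BTG2 chr1:203305269-203305518: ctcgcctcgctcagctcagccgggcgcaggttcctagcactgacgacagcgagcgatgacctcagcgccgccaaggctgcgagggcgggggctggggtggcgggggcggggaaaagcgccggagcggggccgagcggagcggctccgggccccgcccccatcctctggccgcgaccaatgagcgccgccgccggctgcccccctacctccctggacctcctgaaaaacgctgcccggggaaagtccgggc

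The CCR4-NOT members moved the other way. CNOT1 encodes the large scaffold on which the complex is built and to which ZFP36 proteins bind, and lies at chr16:58553855-58663789 on the minus strand. It was at 284, 305 and 264 CPM in the DMSO libraries and at 124, 114 and 119.8 CPM in the THZ1 libraries. No THZ1 library reached the lowest DMSO library. The mean fell from 284 ± 20.5 to 119 ± 5.25 CPM, which is 2.38-fold lower (log2 fold change −1.25, SE 0.07, edgeR adjusted p = 1.8e-16). SETD6, a methyltransferase gene overlapping CNOT1 on the opposite strand, fell from 416 to 419 counts to 70 to 77 counts, a log2 fold change of −1.83 (SE 0.12).

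CNOT6, at chr5:179921379-180005358 on the plus strand, encodes one of the alternative deadenylases of the CCR4 type. Its values were 84.0, 93.1 and 75.4 CPM after DMSO and 34.7, 37.2 and 38.5 CPM after THZ1. The lowest DMSO library lay above the highest THZ1 library. The mean fell from 84.2 ± 8.83 to 36.8 ± 1.93 CPM (log2 fold change −1.19, SE 0.09, edgeR adjusted p = 2.2e-13).

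CNOT7, at chr8:17082475-17104387 on the minus strand, encodes the CAF1-type deadenylase to which BTG and TOB proteins bind. It was measured at 97.6, 98.3 and 93.4 CPM after DMSO and at 38.4, 37.4 and 43.98 CPM after THZ1. The treatments were again fully separated, and the mean fell from 96.4 ± 2.64 to 39.9 ± 3.56 CPM (log2 fold change −1.27, SE 0.09, edgeR adjusted p = 7.7e-15). The falls of CNOT1, CNOT6 and CNOT7 were of like size, 2.38-, 2.29- and 2.42-fold, and 17.2%, 18.4% and 16.8% of the genes tested had a lower log2 fold change.

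The other 8 subunits of the complex did not all follow. With the same test, 5 were lower, 2 higher and 1 was not called, and their median log2 fold change was −0.70. Of all protein-coding genes tested, 47.6% were lower and 36.3% higher, so that these counts alone do not set the subunits apart. CNOT2, which joins CNOT3 in the module that contacts RNA-bound partners, fell furthest, from 73.9, 73.8 and 74.3 CPM to 19.9, 23.9 and 23.1 CPM (log2 fold change −1.73, SE 0.10, edgeR adjusted p = 5.3e-17). It alone of the 11 subunits passed the fold threshold, and its value was −2.37 in the deposited FPKM at a pseudocount of 0.1. CNOT3, its partner, moved in the opposite direction, from 95.5, 92.7 and 101 CPM to 173, 184 and 178 CPM (log2 fold change 0.89, SE 0.07, edgeR adjusted p = 4.9e-13). No THZ1 library of CNOT3 overlapped the DMSO libraries.

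CNOT9, a conserved subunit that binds adaptor peptides, fell from 150.01 ± 5.52 to 70.6 ± 7.19 CPM (log2 fold change −1.09, SE 0.08, edgeR adjusted p = 5.8e-14), CNOT10 from 48.9 ± 1.73 to 20.9 ± 3.65 CPM (adjusted p = 8.1e-12) and its binding partner CNOT11 from 79.8 ± 1.605 to 64.5 ± 2.89 CPM (log2 fold change −0.31, adjusted p = 0.00071). CNOT6L, the paralog of CNOT6, fell from 33.1, 43.6 and 33.1 CPM to 15.5, 16.3 and 15.9 CPM (log2 fold change −1.20, SE 0.12, adjusted p = 1.7e-10). CNOT8, the paralog of CNOT7, was called slightly higher, at 104, 110.2 and 109.5 CPM after DMSO and 129, 125 and 124 CPM after THZ1 (log2 fold change 0.22, SE 0.07, adjusted p = 0.0049), but with library sizes alone as the scaling its log2 fold change was −0.02 and without DMSO replicate 1 the call was lost (0.18, edgeR adjusted p = 0.0692). The ubiquitin ligase CNOT4 had 21.5 ± 1.35 and 23.3 ± 3.60 CPM and was not called (adjusted p = 0.37).

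**Figure D2:**
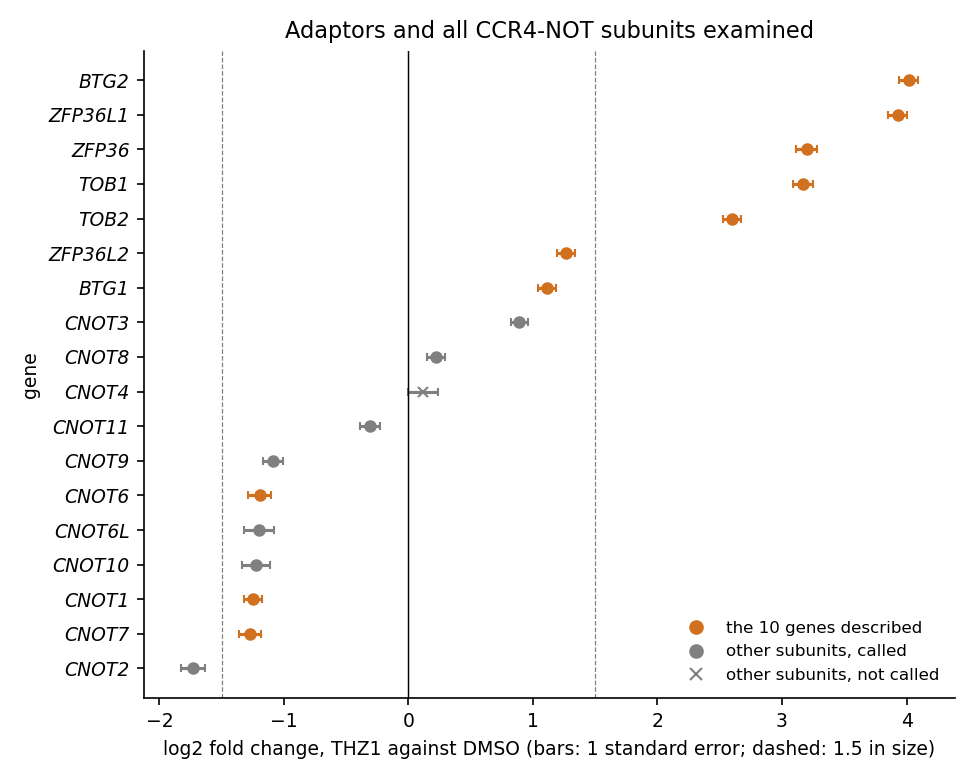
Log2 fold change of THZ1 against DMSO for the 7 adaptors, the 3 CCR4-NOT members and the other 8 subunits, with bars of 1 standard error and dashed lines at 1.5 in size. The adaptors lie between 1.11 and 4.02, and the subunits between −1.73 for CNOT2 and 0.89 for CNOT3, with CNOT8 near 0 and negative (−0.02) when scaled by library sizes alone.

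Related genes were next compared within each library, where the ratio of 2 counts does not depend on the scaling. The levels of single genes did not overlap between treatments in 84.7% of all genes tested, and the share among other gene pairs was not computed. Of 7 ratios, 6 did not overlap between treatments. Each of those 6 gave p = 0.1 in a two-sided exact permutation test, the smallest that 3 libraries against 3 allow (0.117 after Benjamini-Hochberg adjustment over the 7), so that none could pass 0.05.

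The balance in the ZFP36 family shifted away from ZFP36L2. The ratio of ZFP36L2 to ZFP36L1 counts was 0.785, 0.735 and 0.724 after DMSO and 0.114, 0.121 and 0.120 after THZ1, a change of −2.66 on the log2 scale. The ratio of ZFP36 to ZFP36L2 went from 0.287, 0.274 and 0.389 to 1.19, 1.24 and 1.15 (change 1.93), so that ZFP36 had fewer counts than ZFP36L2 in every DMSO library and more in every THZ1 library. The ratio of ZFP36 to ZFP36L1 fell from 0.225, 0.201 and 0.281 to 0.135, 0.150 and 0.139 (change −0.73).

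In the other family, BTG2 had fewer counts than BTG1 in every DMSO library, with ratios of 0.486, 0.525 and 0.524, and more in every THZ1 library, with ratios of 4.11, 3.91 and 3.51. The ratio changed by 2.91 on the log2 scale. The ratio of TOB1 to TOB2 moved less, from 0.339, 0.320 and 0.403 to 0.461, 0.550 and 0.563 (change 0.57).

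The 2 pairs of catalytic paralogs differed. CNOT7 had 0.938, 0.891 and 0.853 times the counts of CNOT8 after DMSO and 0.298, 0.299 and 0.355 times after THZ1, a change of −1.499. For CNOT6 and CNOT6L, the ratios were 2.54, 2.14 and 2.28 after DMSO and 2.24, 2.28 and 2.42 after THZ1. These overlapped, and the exact permutation test gave p = 0.9. With 3 libraries per treatment a small difference could not be detected.

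**Figure D3:**
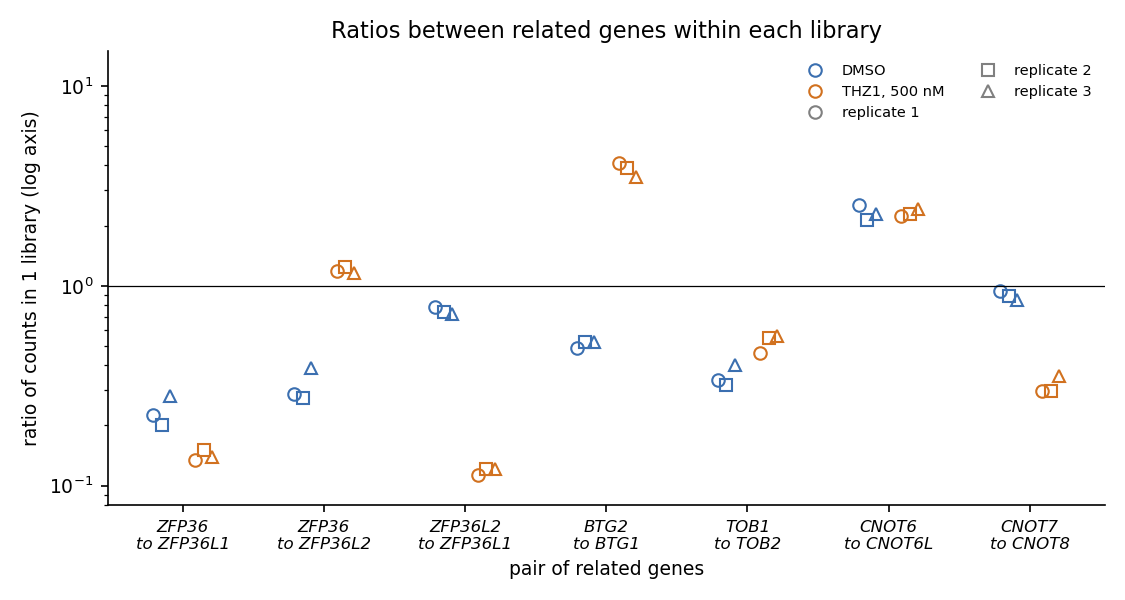
Ratio of the counts of 2 related genes in the same library (log axis), 1 point per library, for 7 pairs. Only the ratio of CNOT6 to CNOT6L overlaps between DMSO and THZ1, and BTG2 to BTG1 and ZFP36 to ZFP36L2 lie below 1 after DMSO and above 1 after THZ1.

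To compare levels between genes, CPM was divided by the length of each gene's merged exons. On this scale of CPM per kilobase (kb), CNOT1 was the highest of the 10 genes after DMSO, at 26.2 ± 1.89, followed by ZFP36L2 at 25.7 ± 2.12 and ZFP36L1 at 19.6 ± 1.18. CNOT1 and ZFP36L2 differed by less than the sum of their SDs. BTG1 (17.6 ± 0.71), TOB2 (17.2 ± 0.88), BTG2 (15.8 ± 0.40), ZFP36 (15.1 ± 1.68), CNOT6 (12.8 ± 1.34), TOB1 (10.5 ± 0.74) and CNOT7 (8.81 ± 0.24) followed. Of these, BTG1 and TOB2, BTG2 and ZFP36, and ZFP36 and CNOT6 were neighbours that differed by less than the sum of their SDs.

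After THZ1 the order changed, with ZFP36L1 at 299 ± 11.1 CPM per kb, BTG2 at 256 ± 1.91, ZFP36 at 138 ± 3.62, TOB2 at 104 ± 4.91 and TOB1 at 94.1 ± 6.40. TOB2 and TOB1 differed by less than the sum of their SDs. ZFP36L2 dropped from the second to the sixth place at 61.9 ± 0.66 and BTG1 followed at 38.0 ± 2.94, although both had risen. CNOT1 at 11.0 ± 0.48, CNOT6 at 5.60 ± 0.29 and CNOT7 at 3.65 ± 0.33 came last. The deposited FPKM values gave the same order of all 10 genes in both treatments. Within a treatment they were close to proportional to CPM per kb for all members but ZFP36L1. The lengths behind the 2 scales are thus much alike, and the shared order is no check on them.

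Each adaptor was also set against CNOT1 on the scale per kb, a comparison chosen after the values were seen. After DMSO the adaptors ranged from 0.349 times CNOT1, for TOB1, to 1.04 times, for ZFP36L2. After THZ1 the ratios were 26.9 to 27.5 for ZFP36L1, 22.3 to 24.6 for BTG2, 11.96 to 13.5 for ZFP36 and 9.34 to 9.59 for TOB2. They were 7.62 to 9.06 for TOB1, 5.39 to 5.84 for ZFP36L2 and 3.08 to 3.73 for BTG1. These are ratios of messages per length and say nothing of protein amounts.

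Beyond CCR4-NOT, other genes of mRNA decay moved in both directions. Of 9 other deadenylases and poly(A)-binding proteins, 3 were higher, 3 lower and 3 not called, with a median log2 fold change of 0.08. The shares among all protein-coding genes tested were 36.3% higher and 47.6% lower. PDE12, a deadenylase acting in mitochondria, rose from 58.9 ± 5.26 to 124 ± 6.88 CPM (log2 fold change 1.08, edgeR adjusted p = 1.1e-13), NOCT by 0.82 and PAN2, the catalytic subunit of the PAN2-PAN3 deadenylase, by 0.63. ANGEL1 fell by 0.98 and the deadenylase PARN by 0.64 on the log2 scale. PAN3, the partner of PAN2, was at −0.18 (adjusted p = 0.027), and with upper quartile factors the value was 0.01. That call was lost with RLE factors (edgeR adjusted p = 0.159), and without DMSO replicate 1, THZ1 replicate 1 or THZ1 replicate 3 (adjusted p = 0.0778, 0.0829 and 0.0531).

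Of 18 decapping and 5′-to-3′ decay genes, 6 were higher, 9 lower and 3 not called, with a median of −0.18. Of all protein-coding genes tested, 36.3% were higher and 47.6% lower. The lower calls of DCP2, EDC3 and LSM4 were lost in 6, 7 and 6 of 16 alternatives, and the higher call of DDX6 in 4. With RLE factors or DESeq2, 6 genes were higher and 6 lower, and with the deposited FPKM 4 were higher and 11 lower. EDC4, a scaffold of the decapping complex, rose from 99.8 ± 10.6 to 188 ± 1.54 CPM (log2 fold change 0.91, adjusted p = 1.5e-12), and EIF4ENIF1 and LSM3 had log2 fold changes of 0.56 and 0.52. LSM14A, a component of P-bodies, fell from 177 ± 5.35 to 46.4 ± 2.19 CPM (log2 fold change −1.93, adjusted p = 1.7e-20). LSM6, of the ring that binds deadenylated 3′ ends, fell by 1.24 and XRN1, the 5′-to-3′ exonuclease of the cytoplasm, by 1.01 on the log2 scale (−1.79 for XRN1 in the deposited FPKM at a pseudocount of 0.1).

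Of the exosome and the SKI complex, which feeds messages to it, 11 of 16 genes were lower, 2 higher and 3 not called, with a median of −0.46. The share lower was 41.1% among all genes tested and 47.6% among protein-coding genes. The log2 fold change was −1.85 for SKIC8, −1.79 for DIS3L, a catalytic subunit of the cytoplasmic exosome, and −1.74 for EXOSC5, and these 3 alone of the list passed the fold threshold. SKIC2, the helicase of the SKI complex, rose from 63.6 ± 2.32 to 134 ± 8.43 CPM and the exosome core gene EXOSC6 from 30.8 ± 0.67 to 62.2 ± 2.98 CPM (log2 fold changes 1.08 and 1.02). EXOSC4, with the third highest value at 0.13, was not called (adjusted p = 0.37), and its value was −0.12 with library sizes alone.

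**Figure D4:**
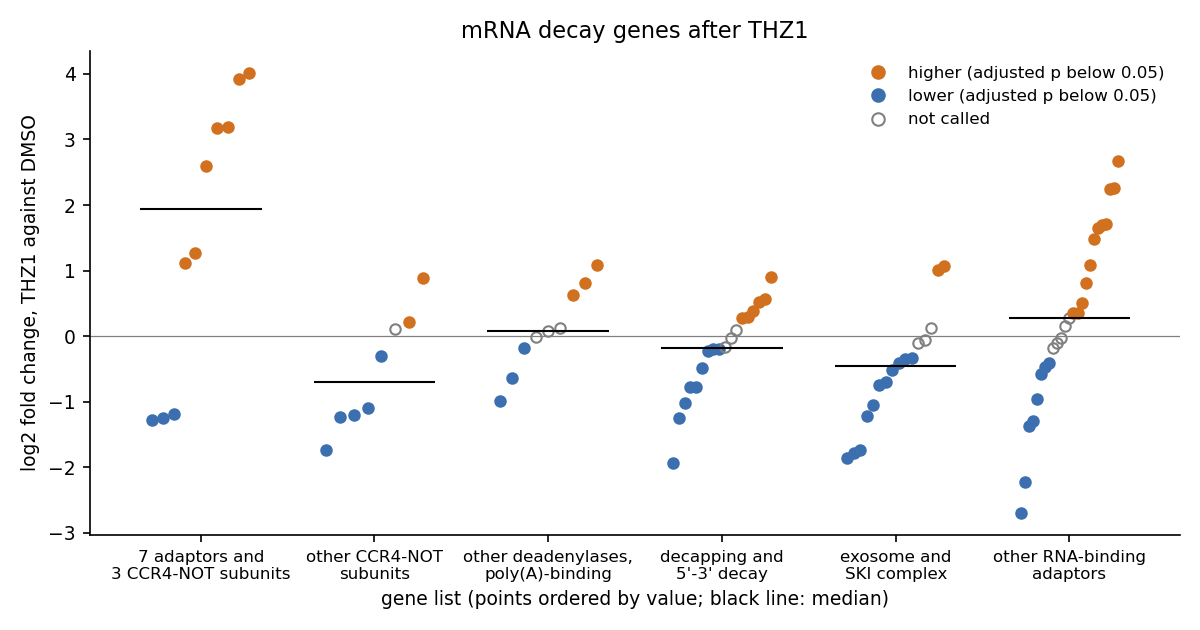
Log2 fold change of THZ1 against DMSO for each tested gene of the members (first column) and of 5 lists of other mRNA decay genes, 1 point per gene ordered by value, coloured by the call, with the median of each column as a black line. The members split into 7 adaptors above 1 and 3 subunits below −1 (median 1.93). The medians of the other lists run from −0.70 for the other CCR4-NOT subunits to 0.27 for the other RNA-binding adaptors. Genes near 0 can change sign under another scaling, among them CNOT8, PAN3, CNOT4, PABPC1, PABPC4 and EXOSC9. NANOS1 and SAMD4A, not called in the counts, are called lower in the deposited FPKM.

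Among 28 other RNA-binding proteins that mark messages for decay or storage, 25 were tested. Of these, 12 were higher, 8 lower and 5 not called, with a median of 0.27, beside 36.3% of protein-coding genes higher and 47.6% lower. This balance depended on the measure, since in the deposited FPKM 9 of 26 were higher and 13 lower. The higher calls of AGO2, CPEB3 and TNRC6B were lost there. BTG3, the remaining tested BTG gene, rose from 14.2 ± 1.98 to 46.8 ± 5.78 CPM (log2 fold change 1.72, adjusted p = 1.4e-14), while BTG4 was under the filter. ZC3H12A, the endonuclease Regnase-1, rose from 8.61 ± 1.38 to 55.0 ± 2.92 CPM (adjusted p = 2e-19). CPEB2 and CPEB4, which bind cytoplasmic polyadenylation elements, rose by 2.26 and 2.24 on the log2 scale, from 4.67 ± 0.80 and 4.87 ± 0.69 CPM. In the deposited FPKM at a pseudocount of 1 both were called but smaller, at 1.12 and 0.82.

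Proteins that bind AU-rich elements outside the ZFP36 family moved in both directions. HNRNPD, also called AUF1, fell from 735 ± 25.4 to 158 ± 7.59 CPM (log2 fold change −2.22, adjusted p = 3.9e-23), and ELAVL1, the stabilising protein HuR, fell from 217 ± 6.12 to 84.1 ± 1.88 CPM (log2 fold change −1.37, adjusted p = 1.2e-17). KHSRP, a decay-promoting protein named after its values were seen, rose from 453 ± 8.99 to 1428 ± 29.9 CPM. The lowest log2 fold change of the list was that of AGO4, an Argonaute protein, at −2.69 (−3.95 in the deposited FPKM at a pseudocount of 0.1).

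Of 16 mRNAs known to be bound by ZFP36 proteins, 9 were tested, and 5 were higher and 4 lower, beside 43.5% and 41.1% of all genes tested, so that the split is close to that of all genes. CSF2, IL2, CXCL8, CXCL1 and PTGS2 had no count in any library, and IL6 and CCND1 were under the filter. IER3, an immediate early response gene, rose most, from 6.34 ± 0.70 to 243 ± 31.0 CPM (log2 fold change 5.26, adjusted p = 1.2e-27). The cytokine TNF rose by 4.34 on the log2 scale and the angiogenic factor VEGFA from 35.4 ± 2.91 to 130.3 ± 12.7 CPM (1.88). The lowest values were those of MYC (−2.89), of the D-type cyclin CCND3, which fell from 571 ± 43.6 to 131 ± 5.51 CPM (log2 fold change −2.12, adjusted p = 3.5e-22), and of CCNE2, an E-type cyclin (−1.98). For all 9 the treatments did not overlap, as for 84.7% of all genes tested. TNF was at 3.51 on the log2 scale in the deposited FPKM at a pseudocount of 1.

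The 7 adaptors further share a gene structure that the choice by name did not use. Each has 2 exons in the transcript with the longest coding sequence, and their spans run from 2566 bases for ZFP36 to 13308 bases for TOB2. CNOT1 has 49 exons over 109935 bases, CNOT6 has 12 over 83980 bases and CNOT7 has 7 over 21913 bases. Of the 11929 tested protein-coding genes, 4.33% have 2 exons.

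The median log2 fold change fell with exon number over all tested protein-coding genes, of which 36.3% were called higher and 47.6% lower. Of the 517 genes with 2 exons, 61.3% were higher and 25.5% lower, with a median log2 fold change of 0.80. Of the 5956 genes with a span of at least 20 kb and at least 7 exons, like the 3 CCR4-NOT members, 24.2% were higher and 59.4% lower, with a median of −0.52. All 7 adaptors lay above the median for 2 exons, BTG1 at 1.11 and ZFP36L2 at 1.27 being the nearest to it, and CNOT1, CNOT6 and CNOT7 lay below the median of the long genes. Tested protein-coding genes with at most 3 exons were called higher in 58.8% and lower in 25.9%. By span alone, 60.5% of genes under 10 kb were higher and 25.4% lower, against 30.2% and 53.1% of genes of 10 kb or more. TOB2, at 13308 bases, is of the latter class, where a rise is the less common direction. The directions of the members were thus those most common by exon number, and by span for all but TOB2. What part structure has in them was not tested.

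**Figure D5:**
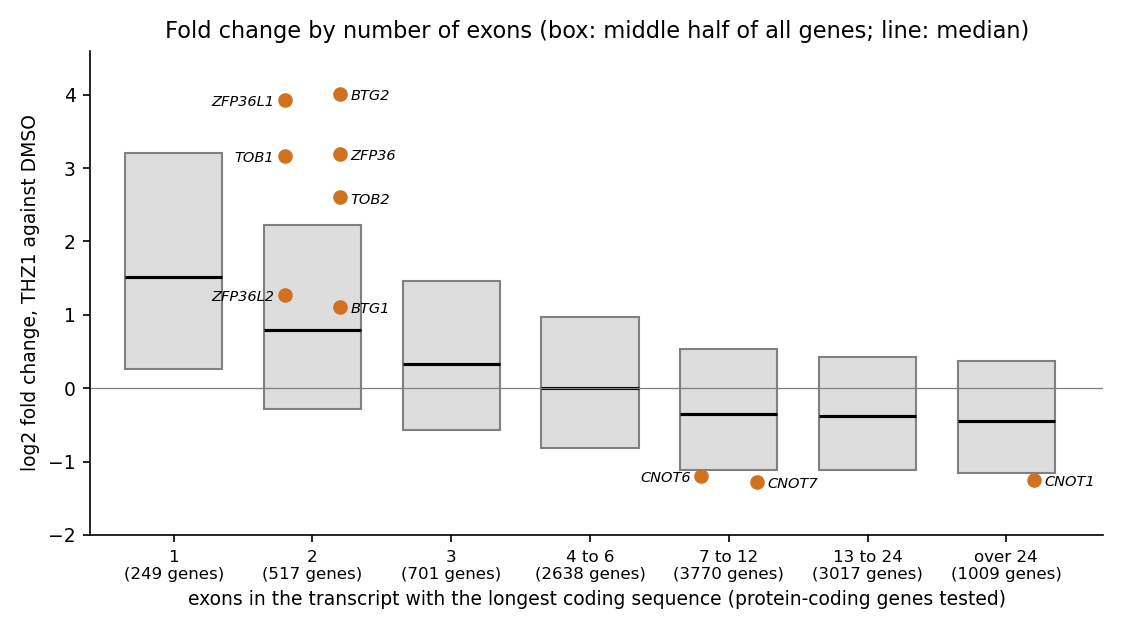
Log2 fold change of THZ1 against DMSO by number of exons in protein-coding genes tested, with a box from the 25th to the 75th percentile, a line at the median and the 10 members as points. The median runs from 1.52 for genes with 1 exon to −0.45 for genes with over 24 exons, the adaptors lie above the median of 0.80 for 2 exons, and the 3 CCR4-NOT members lie below the medians of their bins.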

How the data were processed

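Per the labels and methods, RNA of NALM6 cells was isolated with TRIzol, reads were trimmed with cutadapt and mapped to GRCh37 with STAR, and the authors deposited raw counts per gene from HTSeq. Annotation and strand setting are not given in the sources used here. A second table deposited by the authors holds FPKM from RSEM on a log2 scale, read as log2(FPKM + 1), in which sorted values are nearly alike within a treatment. It was used as an alternative with limma and for the order of levels, and CNOT6L was matched only in the counts. Its columns of the authors' fold changes, p-values and FDR were not used.

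Genes were filtered with filterByExpr by treatment (minimum count 10, minimum total 15), scaled by TMM and tested with edgeR 4.0.16 (quasi-likelihood, two-sided, R 4.3.3), with Benjamini-Hochberg adjustment. Genes were called at an adjusted p below 0.05, the fold threshold being a log2 fold change of 1.5 in size. Standard errors came from the log2 fold change and F. Alternatives were RLE, upper quartile and no scaling factors, DESeq2 1.42.0, other filters, a replicate block, limma 3.58.1 on FPKM with pseudocounts of 1 and 0.1 or a mean FPKM of at least 1, and each library left out. The pipeline was tested on simulated data in which only a small part of the genes was changed. In the real data 84.5% of genes were called, so that the simulation did not test the scaling in that setting. The chi-square per gene between replicates was 1.77 to 8.58, above that of sampling noise.

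The members and lists were chosen with earlier results of these data known. Named genes are the members, the other CCR4-NOT subunits, BTG3, BTG4, genes overlapping a member, and the 3 highest and 3 lowest of each other list. KHSRP, the TATTTAT search, the bins of exon number and the ratio to CNOT1 were chosen after values were seen. For gene structure the plan named at most 3 exons and a span under 10 kb. The classes of 2 exons and of at least 20 kb with at least 7 exons were not in it. DCP1A and TRAC were not matched by identifier, and 1 B cell marker is not reported here. Gene structure is from GENCODE 44 mapped to GRCh37, promoters are from RefSeq (GRCh38.p14). Protein sequences were not analysed here.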

Additional observations from a re-analysis of the deposited data

How the results depend on the processing

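All 10 members kept their direction and call under all 16 alternatives. Their log2 fold changes ran over 2.95 to 3.39 for ZFP36, 3.68 to 4.12 for ZFP36L1, 1.02 to 1.46 for ZFP36L2, 0.86 to 1.31 for BTG1, 3.77 to 4.21 for BTG2, 2.91 to 3.36 for TOB1, 2.35 to 2.79 for TOB2, −1.501 to −1.06 for CNOT1, −1.44 to −1.0002 for CNOT6 and −1.56 to −1.08 for CNOT7. Against TMM, upper quartile factors moved the median of all genes by 0.19 and library sizes alone moved it by −0.25, and no member changed sign. All 16 alternatives compare shares of the counted RNA, so that a change in the amount of RNA per cell was not tested. The number of members lower past the fold threshold, 0 with TMM, was 2 with library sizes alone and 1 with FPKM at a pseudocount of 0.1. CNOT8 lost its call, leaving 1 of the other CCR4-NOT subunits higher, with library sizes alone, without a filter, with all 3 FPKM settings and without DMSO replicate 1. Of the other deadenylases, 6 were higher with upper quartile factors and 5 lower with library sizes alone. Of the decapping genes, 3 were higher with library sizes alone and 5 lower with upper quartile factors. Of the other RNA-binding adaptors, 13 of 26 were lower with all 3 FPKM settings. The cause of these shifts was not tested. Samples with the same replicate number did not deviate together (r of −0.00400, 0.00097 and 0.0206), so the numbers were not read as pairs, and with a replicate block 7 members were higher and 3 lower as before. The 3 libraries per treatment, the shallower THZ1 libraries and the unknown strand setting limit precision.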
